A study of Mus musculus with 27 samples.

Results

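The comparison described here set 3 libraries of the ventral tegmental area (VTA) against 3 libraries of the nucleus accumbens (NAc), all from mice at postnatal day 60 (P60). They are 6 of the 27 libraries of a series whose labels give the cells as sorted DAT+ cells (DAT is the dopamine transporter), from 3 brain regions at 3 ages, in 9 groups of 3. The 6 were taken by their region and age labels: VTA replicates 1, 2 and 3, and NAc replicates 1, 3 and 4. All mice were C57/BL6, with no other genotype or treatment in the labels, and brain is the labelled tissue. The groups used for reference were the 3 libraries of the substantia nigra pars compacta (SNc) at P60 and the VTA and NAc libraries at P7 and P30. By the design, 5 mice were used at each age and 9 libraries were made from them. Libraries of an age therefore share mice, and the labels do not say which. What a p-value is set against is therefore the scatter of libraries within groups, pooled over the 9 groups in the fit of all 27. Part of it may be technical.

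The VTA and the SNc hold the cell bodies of midbrain dopaminergic neurons. The NAc is a main target of VTA axons and is built largely of GABAergic striatal projection neurons, so dopaminergic axons reach it from outside. Midbrain dopaminergic neurons make dopamine with tyrosine hydroxylase (Th) and dopa decarboxylase (Ddc), load it into vesicles through VMAT2 (Slc18a2) and take it back up through DAT (Slc6a3). Microglia are the resident macrophages of the brain. When activated they transcribe cytokine and chemokine genes through the transcription factor NF-kappaB.

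RNA was measured by SMART-seq2. The deposited FPKM values were rescaled so that values times gene length in kilobases summed to 1000000 in each library, and every level given here is on this rescaled FPKM scale. The 6 libraries held 10043557 to 13283346 reads in genes. Genes with a read numbered 18293, 12914 and 18471 in VTA replicates 1, 2 and 3, and 17117, 11962 and 14707 in NAc replicates 1, 3 and 4. VTA replicate 2 and NAc replicate 3 were thus the lowest of their groups. VTA replicates 1 and 3 were more alike than any other pair within the 2 groups: their counts varied 34.3 times as much as counting alone would give, against 211 to 411 times for the other 5 pairs. The NAc libraries differed more among themselves, with a root mean square SD over genes of 1.15 on the log2 scale, against 0.864 in VTA and 0.938 pooled over all 9 groups. Genes of the mitochondrial genome took 9.78%, 11.3% and 10.02% of reads in VTA and 20.3%, 18.5% and 22.8% in NAc, without overlap.

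The values go against the DAT+ label: the dopaminergic genes that define such cells were mostly low or without a read in both regions. Th was higher in VTA replicate 2 (26.1) and NAc replicate 3 (20.05). Microglia markers were high in all 6 libraries, so DAT+ is used here as the label only. The dopaminergic genes did not separate the regions. Slc6a3, the transporter used for the sort, had levels of 1.79, 2.08 and 0.815 in VTA replicates 1, 2 and 3. In NAc it had 3.25 in replicate 1 and no read in replicates 3 and 4. A floor of 3 reads corresponds to a Slc6a3 level of 0.0653 to 0.0864 in the NAc libraries, counting error only, since reads without molecular identifiers are not independent molecules. Th was at 2.84, 26.1 and 4.83 in VTA and at 7.17, 20.05 and 3.28 in NAc, so the groups overlapped fully. Slc18a2 reached at most 3.27 in VTA and 2.45 in NAc, and Ddc at most 3.37 and 5.45. Nr4a2, a transcription factor of dopaminergic neurons, was at 2.35 to 6.89 in VTA and 1.86 to 9.13 in NAc. The log2 differences of these 5 genes, VTA minus NAc, lay between −0.09 ± 0.96 (SE, Th) and 0.62 ± 0.92 (Slc6a3), with adjusted p of 0.8 or more by limma. Pitx3, needed for the survival of midbrain dopaminergic neurons in mice, and Foxa2 had no read in any of the 6 libraries. Of 10 midbrain dopaminergic transcription factors, 3 passed the filter on low values, and none of them was called. None of 15 genes of dopamine synthesis and transport was called, with a median log2 difference of 0.08. Of these, 2 lay wholly above NAc and 2 wholly below. Quantile normalization, the deposited scale, sample weights and the fit without NAc replicate 1 each called 1 of them lower. With voom 1 was called higher and 1 lower.

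The comparison of all genes used limma on log2(rescaled FPKM + 1), fitted to all 27 libraries with a term for each group. The 18888 genes that reached a value of 1 in 3 or more libraries were tested, and a gene was called at an adjusted p under 0.05 (Benjamini and Hochberg). Differences on this scale understate the change of low genes. Between VTA and NAc at P60, 737 genes were called (3.9% of those tested). Of these, 273 were higher in VTA (1.45%) and 464 were lower (2.46%). The median difference over all tested genes was 0. Without regard to the test, all 3 VTA values lay above all 3 NAc values for 9.27% of genes and below them for 9.31%. Among the 737 called genes the groups did not overlap for 710. The count depended on the libraries: leaving out VTA replicate 1, 2 or 3 gave 375, 393 or 327 calls, and 176 genes (50 higher, 126 lower) were called in each of the 6 fits without a library. The spread was pooled over 9 groups, so a gene near 0 in the other groups is given a small spread. The 9 P60 libraries alone gave 145 calls. The 6 libraries alone gave 0 calls by limma, with 2454 genes at an unadjusted p under 0.05, against 3464 in the fit of all libraries.

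Genes of neurons were among those lower in VTA. Of 16 pan-neuronal genes, 10 fell and none rose, with a median log2 difference of −2.48, and for 15 of them every VTA value lay below every NAc value. Rbfox3, which encodes the neuronal nuclear protein NeuN, was at 3.58, 1.73 and 2.74 in VTA replicates 1, 2 and 3, and at 38.9, 64.7 and 30.4 in NAc replicates 1, 3 and 4. The lowest NAc library was thus many times above the highest VTA library. The log2 difference was −3.59 ± 0.76 (SE, adjusted p = 0.01), and the call held without each library in turn (adjusted p up to 0.04). Eno2, the neuronal enolase, fell by 3.09 ± 0.54 on the log2 scale (adjusted p = 0.0027), and Stmn2, a regulator of microtubules in growing axons, by 2.91 ± 0.60 (adjusted p = 0.009). Both calls held in all 6 fits without a library. The 6 pan-neuronal genes that were not called, had differences from −2.24 (Elavl3) to −1.31 (Nefh). The summed level of the 16 genes was 86.3 to 125 in VTA and 632 to 924 in NAc. The number called was 6 without VTA replicate 1 and 5 without VTA replicate 3 or NAc replicate 1. It was 2 with the 9 P60 libraries alone and 0 with a pseudocount of 0.1 in place of 1.

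Genes of the synaptic vesicle and of transmitter release were also among the lower ones. Of 21 such genes, 13 fell and none rose (median log2 difference −2.42), and 17 did not overlap. Syn1 and Syn2 encode synapsins, which tether vesicles to the cytoskeleton. Syn1 was at 2.98, 0 and 4.7 in VTA and at 44.8, 60.4 and 18 in NAc, a log2 difference of −3.73 ± 0.66 (adjusted p = 0.003). Syn2 was at 3.5, 0.297 and 1.02 in VTA and at 35.5, 32.8 and 38.2 in NAc, a log2 difference of −4.00 ± 0.64 (adjusted p = 0.0016). In both genes the groups were far apart and NAc was the high one. Bassoon (Bsn), a scaffold of the active zone, fell by 2.85 ± 0.49 (adjusted p = 0.0022). The calls of these 3 genes held without each library. The 8 genes that were not called lay between −2.59 (Syt4) and −0.02 (Cplx1). The number of calls was 7 without VTA replicate 3 or without NAc replicate 1, 1 with the 9 P60 libraries alone, 1 with a pseudocount of 0.1 and 20 with voom. With neither VTA replicate 2 nor NAc replicate 3, the libraries with the fewest genes, 7 synaptic and 2 pan-neuronal genes were called, all lower, with medians of −2.39 and −2.55.

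Markers of both glutamatergic and GABAergic neurons were among the lower genes. Of 7 glutamatergic markers tested, 5 fell (median −2.51), or 3 without VTA replicate 3. With the 9 P60 libraries alone, and with a pseudocount of 0.1, 1 of them was called. Camk2a, placed in this list, encodes the alpha subunit of a calcium and calmodulin dependent kinase. It was at 13.1, 8.24 and 7.78 in VTA and at 311, 149.5 and 123 in NAc. Its log2 difference was −4.10 ± 0.65 (adjusted p = 0.0015), and the call held without each library. Slc17a7, the vesicular glutamate transporter VGLUT1 of cortical and hippocampal neurons, fell by 2.81 ± 0.61 (adjusted p = 0.012), and lost its call without VTA replicate 3 (adjusted p = 0.074). Of 13 GABAergic markers tested, 3 fell (median −1.88): Gad1, which makes GABA, Slc32a1, which loads it into vesicles, and Pvalb, a calcium buffer of interneurons. The number was 0 with the 9 P60 libraries alone, with a pseudocount of 0.1 or without VTA replicate 3, and 1 without VTA replicate 2 or NAc replicate 3. None of the 3 calls held in all 6 fits, with adjusted p up to 0.21, 0.08 and 0.12. Gad1 lost its call without VTA replicates 1 or 3 or NAc replicates 1 or 3, Slc32a1 without VTA replicates 2 or 3 or NAc replicate 3, and Pvalb without VTA replicates 2 or 3 or NAc replicates 3 or 4.

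Striatal projection neurons are the main neurons of the NAc itself. Of 20 of their markers, 5 were lower in VTA, none was higher, and the median difference was −1.31. Penk, the precursor of the enkephalins made by indirect pathway neurons, was at 10.7, 2.17 and 12.1 in VTA and at 106, 65.4 and 209.6 in NAc. It fell by 3.87 ± 0.69 (adjusted p = 0.0032, up to 0.024 without a library). Bcl11b and Meis2, transcription factors of striatal neurons, fell by 2.47 ± 0.49 and 2.97 ± 0.50 (adjusted p = 0.0061 and 0.0022). These 3 calls held without each library. Ppp1r1b, the dopamine regulated phosphatase inhibitor DARPP-32, was at 7.69 to 14.4 in VTA and 78.9 to 125 in NAc, without overlap, but its adjusted p of 0.049 rose to as much as 0.15 and the call was lost without any 1 of the 6 libraries. Pde10a, a phosphodiesterase, fell by 2.07 ± 0.53 (adjusted p = 0.028, up to 0.10) and lost its call without VTA replicates 1 or 3 or NAc replicates 1 or 3. The dopamine receptors were uneven within NAc: Drd1 was at 4.36, 1.51 and 0, and Drd2 at 0, 26.0 and 10.1, so that neither was called (adjusted p = 0.25 and 0.053). The number of calls was 3 without VTA replicate 1 or 3, 2 with the 9 P60 libraries alone and 1 with a pseudocount of 0.1. Of 11 tested genes listed as enriched in VTA dopaminergic neurons (median −0.96), 2 were lower in VTA than in NAc, Calb1 and Cck. Of 10 tested SNc-enriched genes (median −0.43), 1 was lower, Lmo3. The decreases were 2.83 ± 0.71, 3.34 ± 0.86 and 2.33 ± 0.47 (adjusted p = 0.025, 0.029 and 0.0072). In the VTA-enriched list 2 genes lay wholly below NAc and 1 wholly above. With the 9 P60 libraries alone both lists had 0 calls. With a pseudocount of 0.1 the VTA-enriched list had 0 and the SNc-enriched list 1. The call of Lmo3 held without each library. Calb1 lost its call without VTA replicates 1 or 2 or NAc replicate 1, and Cck without VTA replicates 1 or 3 or NAc replicates 1 or 4 (adjusted p up to 0.13 for each).

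**Figure D1:**
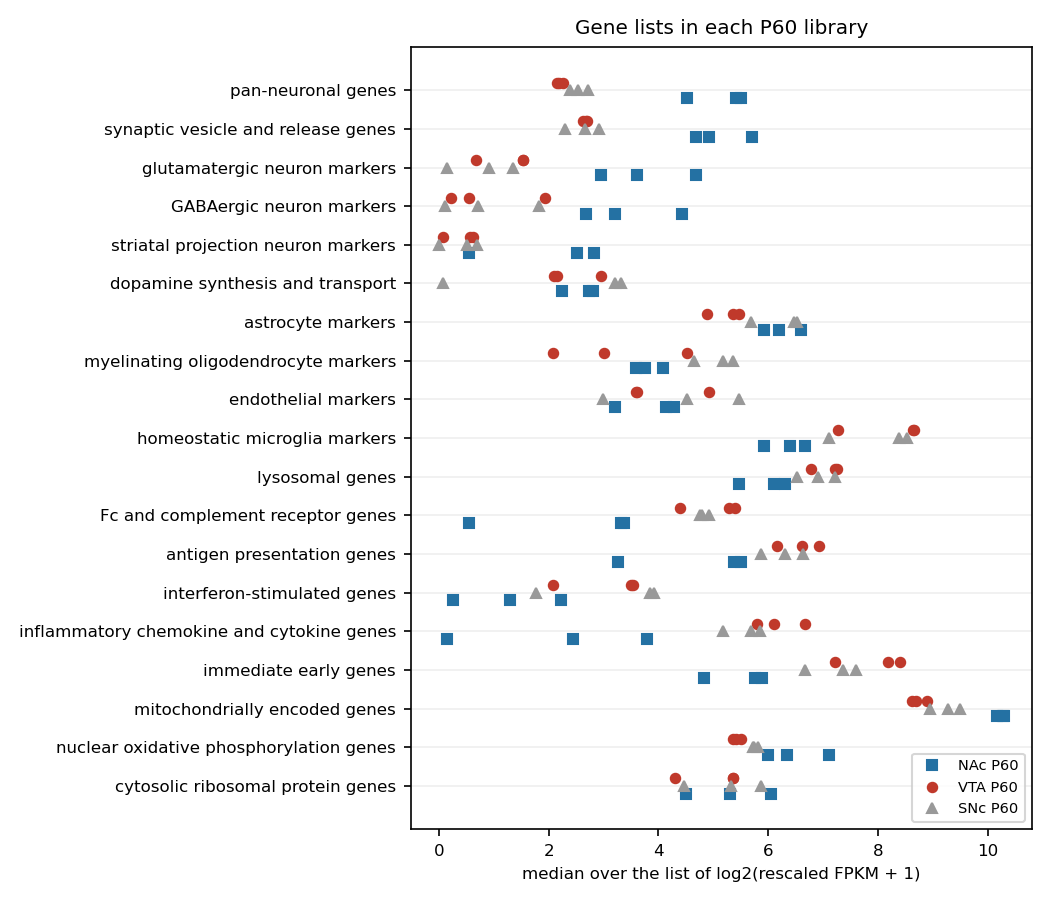
Median of log2(rescaled FPKM + 1) over the tested members of 19 gene lists in each of the 9 P60 libraries (points, 3 for each region). The VTA points of the pan-neuronal list lie at 2.16 to 2.27 and the NAc points at 4.52 to 5.5, while the homeostatic microglia list runs the other way, at 7.27 to 8.66 in VTA and 5.93 to 6.66 in NAc.

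Genes of microglia were among those higher in VTA. Of 20 homeostatic microglia markers, 6 rose and none fell (median log2 difference 2.00), and for 11 the groups did not overlap. Cx3cr1, the fractalkine receptor, was at 426, 191 and 456 in VTA and at 103, 77.9 and 13.2 in NAc. Every VTA library stood above every NAc library (log2 difference 2.78 ± 0.62, adjusted p = 0.014), and the gene lost its call without VTA replicates 1 or 3 or NAc replicate 4 (adjusted p up to 0.066). Tmem119, a marker that separates microglia from other macrophages, was at 2782, 1786 and 2586 in VTA and 716, 758 and 250.4 in NAc (2.19 ± 0.62, adjusted p = 0.046), and its call was lost without any VTA library or NAc replicates 1 or 4 (adjusted p up to 0.18). The purinergic receptor P2ry12 had 1202 to 1900.4 in VTA and 70.3 to 642 in NAc, and was not called (adjusted p = 0.11). The complement gene C1qa, at 6923, 2614 and 7118 in VTA, overlapped with NAc, where it was at 1918, 487 and 6463 (adjusted p = 0.27).

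All 20 homeostatic markers had at least 3 reads in each of the 6 libraries, NAc included. Their summed level was 18041 to 29323 in VTA and 5517 to 15109 in NAc, higher by far in both regions than the summed level of the 16 pan-neuronal genes. In bulk samples, fewer cells of a type and less RNA per cell cannot be told apart. Without VTA replicate 1 or without VTA replicate 3, 1 of the 20 markers was called, and with neither VTA replicate 2 nor NAc replicate 3, 2 were called, with a median of 1.89. With the 9 P60 libraries alone 1 was called, with a pseudocount of 0.1 2, with sample weights 15 and with voom 17. Of 11 border-associated macrophage markers 1, Stab1, rose (2.17 ± 0.59, adjusted p = 0.037, up to 0.11 and lost without each VTA library, NAc replicate 3 or NAc replicate 4), with a median of 0.27. Of 20 genes of disease-associated microglia, 2 rose, the cathepsins Ctsd and Ctsb (1.95 ± 0.48 and 1.46 ± 0.40, adjusted p = 0.022 and 0.036). The median of that list was 1.12. Neither cathepsin call held without VTA replicates 1 or 3 (adjusted p up to 0.11 and 0.14), and both were also lost without NAc replicate 4. Ctsd was lost without NAc replicate 3 as well, and Ctsb without VTA replicate 2.

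Lysosomal, complement receptor and antigen presentation genes, which microglia express strongly, were also among the higher genes. Of 28 lysosomal genes, 9 rose and none fell, with a median of 1.80. For 15 of them every VTA value lay above every NAc value, and for 1 every VTA value lay below. Quantile normalization, voom and sample weights each called 1 gene of this list lower. Ctss, a cathepsin of the microglial endolysosome, was at 8409.9, 4597 and 8127 in VTA and at 2469, 644 and 2362 in NAc, a log2 difference of 2.13 ± 0.45 (adjusted p = 0.01, up to 0.046 without a library). Ctsz rose by 1.97 ± 0.41 (adjusted p = 0.009), with nearly equal VTA levels of 1937, 2056 and 1987. The lysosomal count was 3 without VTA replicate 1 or 3, 2 with the 9 P60 libraries alone, 5 with a pseudocount of 0.1 and 4 on the deposited scale. On the deposited scale the Fc and complement receptor list had 2 calls and the antigen presentation list 0, and with the 9 P60 libraries alone they had 1 and 0. Of 13 Fc and complement receptor genes, 4 rose (median 2.01), led by C3ar1, the receptor of the complement fragment C3a. C3ar1 was at 79.7, 44.8 and 83.2 in VTA and at 3.55, 0.971 and 10.8 in NAc (3.84 ± 0.77, adjusted p = 0.0066, up to 0.032). The other 3, C5ar1, Cd33 and Itgb2, each lost the call without VTA replicate 1 or 3 and without NAc replicate 3, so that 1 gene of the list was called in each of those fits. Of 14 antigen presentation genes, 3 of the MHC class I pathway rose (median 1.86): H2-K1, H2-D1 and Tapbp. H2-K1 was at 1188, 4293 and 1165 in VTA and at 123, 1069.9 and 94.2 in NAc, highest in replicate 2 of VTA and replicate 3 of NAc. Genes of this family are close copies, so their reads may be split between them. None of the 3 held in all 6 fits (adjusted p up to 0.091, 0.16 and 0.12), and 1 was called without VTA replicate 1 or 3 or NAc replicate 4. Of 16 interferon-stimulated genes, Irf7 alone rose (3.90 ± 0.88, adjusted p = 0.014), and it was lost without VTA replicate 2 (adjusted p = 0.064).

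Inflammatory genes had the highest median of the 34 lists. Of 18 chemokine, cytokine and NF-kappaB feedback genes, 8 rose and none fell, with a median log2 difference of 3.62, and 12 did not overlap. Tnf, the cytokine TNF, was at 220.0, 89.5 and 249.8 in VTA and at 8.36, 0.243 and 5.55 in NAc. Its log2 difference was 5.34 ± 1.23 (adjusted p = 0.016), and the call was lost without VTA replicates 1 or 3 or NAc replicate 3 (adjusted p up to 0.064). The feedback inhibitors that NF-kappaB induces gave steadier calls. Nfkbia, which encodes IkappaB alpha, was at 2077, 686 and 2199 in VTA and at 116, 102 and 498 in NAc (3.01 ± 0.58, adjusted p = 0.0055). Nfkbiz was at 72.3, 61.5 and 67.5 in VTA and at 4.35, 1.49 and 4.15 in NAc (4.05 ± 0.76, adjusted p = 0.0044), and Tnfaip3, which encodes the ubiquitin-editing enzyme A20, rose by 3.73 ± 0.64 (adjusted p = 0.0022). Icam1, an adhesion molecule, rose by 4.16 ± 0.83 (adjusted p = 0.0067). These 4 calls held without each library, with adjusted p up to 0.037. The chemokine Cxcl10 had 304, 314 and 317 reads in the VTA libraries and none in the NAc libraries, at least 96.3-fold higher in VTA against a floor of 3 reads per NAc library, but its adjusted p of 0.037 rose to as much as 0.10 and the call was lost without any 1 library. Ccl3 and Il1a rose by 4.30 ± 1.03 and 3.99 ± 1.08 (adjusted p = 0.019 and 0.037), and both lost the call without VTA replicates 1 or 3 or NAc replicate 3, Il1a also without NAc replicate 4 (adjusted p up to 0.076 and 0.13). The number called was 4 without VTA replicate 1, VTA replicate 3 or NAc replicate 3, and 4 with neither VTA replicate 2 nor NAc replicate 3 (median 3.09).

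Promoters of this list were searched for the NF-kappaB motif because the genes that gave the steadiest calls belong to that pathway. The search covered the 250 bases before the start of each gene in RefSeq sequences of GRCm38.p6, for GGGNNNTTCC on both strands. Of the 18 genes, 13 had a promoter in the table, and 6 of these 13 (46.2%) held the motif, against 1434 of all 27025 genes (5.31%). The 6 were Cxcl1, Cxcl10, Cxcl2, Il6, Nfkbia and Tnfaip3, of which Cxcl10, Nfkbia and Tnfaip3 were called. The list was made of chemokine, cytokine and NF-kappaB feedback genes, so this share describes how the list was made. It would be the same whatever levels these libraries had. A match describes these letters and is not shown to be a site, and genes without one may be reached through other letters or positions. The stretches of the 3 called genes are shown with the motif in capitals, 5′ to 3′ on the strand of the gene. They lie at chr12:55492648-55492897 (minus strand) for Nfkbia, chr5:92348890-92349139 (minus strand) for Cxcl10, and chr10:19015411-19015660 (minus strand) for the first of 2 Tnfaip3 starts with a match. The first base of the match lies 29 bases before the start in Nfkbia, 159 and 104 in Cxcl10, and 12 in Tnfaip3.
Nfkbia: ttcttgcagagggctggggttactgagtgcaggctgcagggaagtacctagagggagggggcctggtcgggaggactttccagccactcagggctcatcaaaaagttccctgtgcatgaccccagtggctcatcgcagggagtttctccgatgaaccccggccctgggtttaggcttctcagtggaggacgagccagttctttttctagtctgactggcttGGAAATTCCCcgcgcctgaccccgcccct
Cxcl10: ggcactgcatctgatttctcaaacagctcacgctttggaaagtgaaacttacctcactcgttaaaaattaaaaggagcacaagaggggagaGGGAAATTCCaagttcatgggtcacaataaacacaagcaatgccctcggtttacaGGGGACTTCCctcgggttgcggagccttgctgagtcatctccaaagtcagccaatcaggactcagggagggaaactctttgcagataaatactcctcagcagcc
Tnfaip3: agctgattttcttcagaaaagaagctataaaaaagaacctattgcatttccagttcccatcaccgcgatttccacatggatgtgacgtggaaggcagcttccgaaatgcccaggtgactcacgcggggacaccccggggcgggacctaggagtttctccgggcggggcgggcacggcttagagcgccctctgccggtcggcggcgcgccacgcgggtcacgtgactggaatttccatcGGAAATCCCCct

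Immediate early genes are transcribed within minutes of a stimulus. Of 20 tested, 11 rose, none fell and 9 did not pass (median 2.57), and 16 had every VTA value above every NAc value. Junb was at 2489, 4272 and 2498 in VTA and at 206, 1281 and 68.3 in NAc, a log2 difference of 3.50 ± 0.69 (adjusted p = 0.006). Ier2 was at 817, 610.2 and 1043 in VTA and at 78.2, 154 and 52.4 in NAc (3.21 ± 0.61, adjusted p = 0.0047). Klf2 and Btg2 rose by 3.56 ± 0.71 and 2.55 ± 0.54 (adjusted p = 0.0061 and 0.0096). The calls of these 4 genes held without each library. Fos was at 2243, 548 and 2166 in VTA and at 212, 192 and 257 in NAc (2.66 ± 0.60, adjusted p = 0.014), and lost its call without VTA replicates 1 or 3 (adjusted p up to 0.077). Arc, an immediate early gene of neurons, lay on the other side, at 2.35, 8.74 and 3.58 in VTA and 50.6, 28.5 and 6.48 in NAc, and was not called (adjusted p = 0.13), though it was called lower without NAc replicate 4. The count was 4 without VTA replicate 1 or 3, 6 without NAc replicate 4, 5 on the deposited scale, 6 with the 9 P60 libraries alone, 6 with a pseudocount of 0.1, and 9 with neither VTA replicate 2 nor NAc replicate 3 (median 3.01). Of 12 heat shock genes, 3 rose, Hspa1a, Hspa5 and Dnajb1 (3.31 ± 0.87, 1.92 ± 0.45 and 2.36 ± 0.57, adjusted p = 0.032, 0.018 and 0.02), with a list median of 0.59. None of the 3 was called without VTA replicate 1, VTA replicate 3 or NAc replicate 4 (adjusted p up to 0.11, 0.074 and 0.10).

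The regulatory stretches of 2 of the called immediate early genes, Btg2 and Dusp1, held a cyclic AMP response element, TGACGTCA, in the same 250 bases. These were 2 of 17 immediate early genes with a promoter in the table (11.8%), against 478 of 27025 genes (1.77%). The SRF motif known as the CArG box was found for 2 of the 17, Egr2 and Zfp36, against 439 of all genes (1.62%). The NF-kappaB motif was found for 0 of the 17. These shares also describe the list and do not depend on the levels in these libraries. The Btg2 stretch, at chr1:134079156-134079405 on the minus strand, is shown because the call of Btg2 held without each library and that of Dusp1 did not, with the element in capitals beginning 166 bases before the start.
Btg2: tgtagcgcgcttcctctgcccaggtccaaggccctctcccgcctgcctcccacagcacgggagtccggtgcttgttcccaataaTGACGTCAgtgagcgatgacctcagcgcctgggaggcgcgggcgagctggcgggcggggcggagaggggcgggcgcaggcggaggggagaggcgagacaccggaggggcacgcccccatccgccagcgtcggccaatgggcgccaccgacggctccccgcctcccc

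**Figure D2:**
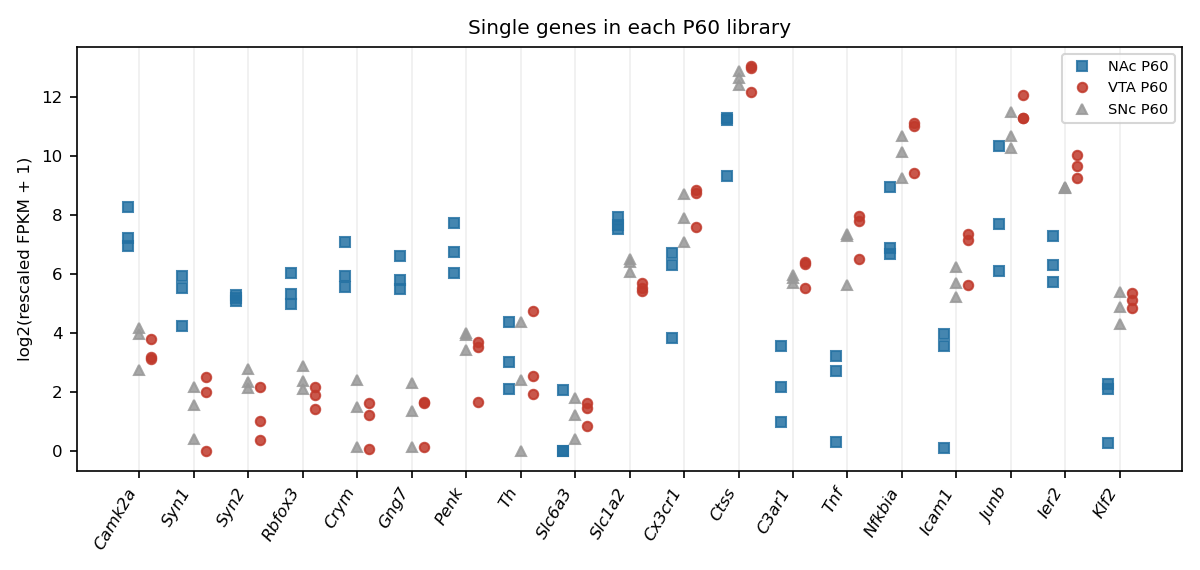
Levels of 19 genes as log2(rescaled FPKM + 1) in each P60 library, with 3 points for each region. For Camk2a the VTA points (levels of 7.78 to 13.1) lie below the NAc points (123 to 311), for Cx3cr1 they lie above (191 to 456 against 13.2 to 103), and for Th and Slc6a3 the regions overlap.

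Of 15 astrocyte markers, Slc1a2 and Clu were lower in VTA and none was higher (median −1.06). The glutamate transporter Slc1a2 was at 44.9, 42.3 and 50.6 in VTA and at 201, 183 and 246 in NAc, tight within each region and far apart between them (−2.16 ± 0.46, adjusted p = 0.0099, up to 0.037 without a library). The call of Clu (adjusted p = 0.049) was lost without any VTA library or NAc replicates 1 or 4 (up to 0.17). No marker of myelinating oligodendrocytes (15 tested, median −0.29), their precursors (11, median 0.07) or endothelium (16, median 0.58) was called. Among 11 mural and fibroblast genes Pdgfrb fell (−2.49 ± 0.67, adjusted p = 0.034, up to 0.13, lost without VTA replicates 2 or 3 or NAc replicates 3 or 4), with a list median of 0.59. Ttr, the transthyretin of the choroid plexus, was at 55.1, 31.7 and 32.7 in VTA and at 475, 258 and 2192 in NAc (−4.03 ± 1.06, adjusted p = 0.032), and lost its call without any VTA library or NAc replicates 1 or 4 (up to 0.14). Of 10 blood cell markers tested, with a median of −1.84, Hbb-bs and S100a8 fell by 3.14 ± 0.89 and 2.68 ± 0.74 (adjusted p = 0.047 and 0.039, up to 0.18 and 0.19), and both were lost without any VTA library or NAc replicates 1 or 4. NAc replicate 4 held the highest level of these 3 genes. The summed level of the ependymal and choroid plexus list was 54.2 to 102 in VTA and 272 to 2220 in NAc, where most of it was Ttr. The list did not move with Ttr: the median log2 difference of its 9 genes was 0.55. In this list 1 gene lay wholly above NAc and 1 wholly below. The summed level of the blood list was 13.6 to 21.9 in VTA and 33.7 to 261 in NAc.

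Genes of the respiratory chain were mostly not called. None of the 13 mitochondrially encoded genes was called, but 8 lay wholly below NAc, and the median was −1.10. Under quantile normalization 7 of them were called lower. Of 52 nuclear oxidative phosphorylation genes, Ndufa4 was called (−1.87 ± 0.46, adjusted p = 0.022, up to 0.10, lost without any VTA library or NAc replicate 4), 15 lay wholly below NAc, and the median was −0.85. Sample weights, which count the more variable libraries less, gave 10 calls in this list, all lower. Of the ribosomal protein genes, 0 of 78 were called and the median was −0.09. The share of mitochondrial reads moved with the neuronal genes, being higher in each NAc library, and its part in those results was not tested.

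The 15 largest decreases that met the naming rule included Crym, Gng7, Cnih2, Ddn, Dkk3 and Gh. Crym, the thyroid hormone binding protein mu-crystallin, at chr7:120186380-120202111, was at 2.09, 0.0536 and 1.36 in VTA and at 60.7, 46.5 and 136 in NAc. It had the largest decrease of the genes that met the naming rule, −5.22 ± 0.77 (adjusted p = 0.0012, up to 0.0074 without a library). Gng7, a G protein subunit of striatal signalling, was at 2.12, 0.096 and 2.19 in VTA and at 44.0, 96.1 and 55.0 in NAc (−4.82 ± 0.77, adjusted p = 0.0016). Cnih2, an auxiliary subunit of AMPA receptors, fell by 4.66 ± 0.65 and the dendritic protein gene Ddn by 3.89 ± 0.58 (adjusted p = 0.0012 for both). Gh, the pituitary growth hormone, was also among them, at 1.33, 0.632 and 2.45 in VTA and at 47.2, 17.1 and 52.8 in NAc (−3.93 ± 0.80, adjusted p = 0.0073). The calls of these 5 genes and of Dkk3 held in all 6 fits without a library.

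The 15 largest increases included Plaur, Slc16a10, Fgd2, Batf and H2-Q6. Plaur, the urokinase receptor, was at 40.4, 96.2 and 45.2 in VTA and at 2.04, 0.951 and 0.0344 in NAc (4.96 ± 0.79, adjusted p = 0.0015). Slc16a10, an aromatic amino acid and thyroid hormone transporter, was at 10.9, 63.0 and 14.8 in VTA and at 0, 0.0135 and 0.196 in NAc (4.42 ± 0.63, adjusted p = 0.0012). Fgd2, an exchange factor of antigen-presenting cells, rose by 4.23 ± 0.70 (adjusted p = 0.0019). These 3 calls held without each library. Batf, a transcription factor of the AP-1 family, was at 23.7 to 37.7 in VTA and at 0.0641 or less in NAc (4.96 ± 1.13, adjusted p = 0.014), and missed the threshold narrowly without VTA replicate 1 (adjusted p = 0.051). The MHC gene H2-Q6, a member of a family of close copies, was at 22.8, 14.0 and 16.6 in VTA and had no read in NAc, at least 140.2-fold higher against the floor. Its adjusted p was 0.013, and up to 0.048 without a library.

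The short RNA genes Mir1195, Rnu1a1 and Snora31 were also among the largest increases and are uncertain. Poly(A)-primed libraries do not capture mature short RNAs well, Rnu1a1 is a U1 gene with near-identical copies, and the mature sequence annotated for Mir1195 resembles the B1 repeat. Mir1195 had 54, 97 and 24 reads in VTA and none in NAc, and lost its call without VTA replicate 2 (adjusted p = 0.015, then 0.066). Its mature sequence, at chr17:70860558-70860580 on the minus strand in RefSeq (GRCm38.p6), is shown for that reason, with the seed (bases 2 to 8) in capitals.
Mir1195: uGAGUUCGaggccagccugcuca

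The SNc libraries of the same age gave few calls against VTA. Across genes, rank correlations between VTA and SNc libraries were 0.660 to 0.828, and those between VTA and NAc libraries 0.557 to 0.656. Between VTA and SNc, 2 genes were called (0.0106%), with 645 at an unadjusted p under 0.05. They were Mbp and the transcript A930024E05Rik, named here after their values were seen. Mbp, the myelin basic protein, was at 130.2, 86.9 and 135 in VTA, at 1669.6, 1432 and 2252 in SNc and at 229.5, 187 and 196 in NAc, so that SNc alone was high (VTA minus SNc −3.92 ± 0.52, adjusted p = 0.0018). The 15 myelinating oligodendrocyte markers, of which no other was called, had a median VTA minus SNc difference of −1.78, and their summed level, Mbp included, was 296 to 592 in VTA and 2580 to 2822 in SNc. The medians were −0.82 for oligodendrocyte precursor markers and −0.79 for astrocyte markers. Between SNc and NAc, 471 genes were called (2.49%). That comparison shares the NAc libraries with the one described here, so its values are given side by side only. Cx3cr1 differed from NAc by 2.78 in VTA and 2.29 in SNc, Tnf by 5.34 and 4.68, Junb by 3.50 and 2.76, Camk2a by −4.10 and −3.86, and Syn1 by −3.73 and −3.84. Slc1a2 differed by −2.16 in VTA and −1.38 in SNc.

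At P7 the median difference between VTA and NAc had the opposite sign for the pan-neuronal, synaptic, homeostatic microglia, lysosomal, inflammatory and immediate early lists. The test of the difference between ages, VTA minus NAc at P60 against P7 in the same fit, called 2503 genes (13.3%), 1146 more positive at P60 and 1357 more negative. Of 20 homeostatic microglia markers, 14 were called more positive and none more negative; the median difference was −2.12 at P7 and 2.00 at P60. Cx3cr1 was at 34, 37.9 and 42.7 in VTA and at 299, 293 and 316 in NAc at P7, so that NAc was the high region then. The change between the ages was 5.74 ± 0.88 (adjusted p = 0.00037). Of 16 pan-neuronal genes, 15 were called more negative at P60, with medians of 1.80 at P7 and −2.48 at P60. Syn2 at P7 was at 4.65, 10.1 and 18 in VTA and at 1.12, 0.89 and 1.08 in NAc, and the change was −6.39 ± 0.91 (adjusted p = 0.00023). Of 21 synaptic genes 17 were called more negative, of 18 inflammatory genes 9 more positive, and of 20 immediate early genes 12 more positive. The library names of an age share a date and a code that differ between the ages, so age cannot be told apart from what these stand for, while the regions of an age share them. The P7 libraries also differed by region. Genes with a read numbered 15438, 16278 and 13954 in VTA at P7 and 19904, 19839 and 19725 in NAc. The root mean square SD was 1.13 in VTA at P7 and 0.374 in NAc. Mitochondrial genes took 18.9%, 13.2% and 21.7% of reads in VTA at P7, above every NAc P7 library, the reverse of P60. Of the 13 mitochondrially encoded genes, 9 were called more negative at P60. The part of these differences in the change of sign was not tested.

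Some genes had the same direction at P7 and at P60. Penk was lower in VTA at P7 as well (−3.57 ± 0.69, adjusted p = 0.0032), at 1.33, 16.7 and 2.79 against 85.7, 76.4 and 38.4 in NAc, and the difference between the ages was not called (−0.29 ± 0.98, adjusted p = 0.88). Ppp1r1b was near 0 in VTA at P7 (0.186 or less) and at 65.0 to 74.5 in NAc, a difference of −5.98 ± 0.87 (adjusted p = 0.0003). At P60 it was again lower in VTA, but there its call held in none of the fits without a library. Of 20 striatal projection neuron markers, 5 changed toward the negative between the ages and 1 toward the positive. Of 22 cell cycle genes, 12 changed toward the positive, with a median difference of −2.86 at P7 and 0 at P60. Among them was Ccnb1, a mitotic cyclin, at 60.3, 45.8 and 59.9 in NAc at P7 and at most 0.319 in VTA at P7 and 1.73 in any of the 6 P60 libraries.

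**Figure D3:**
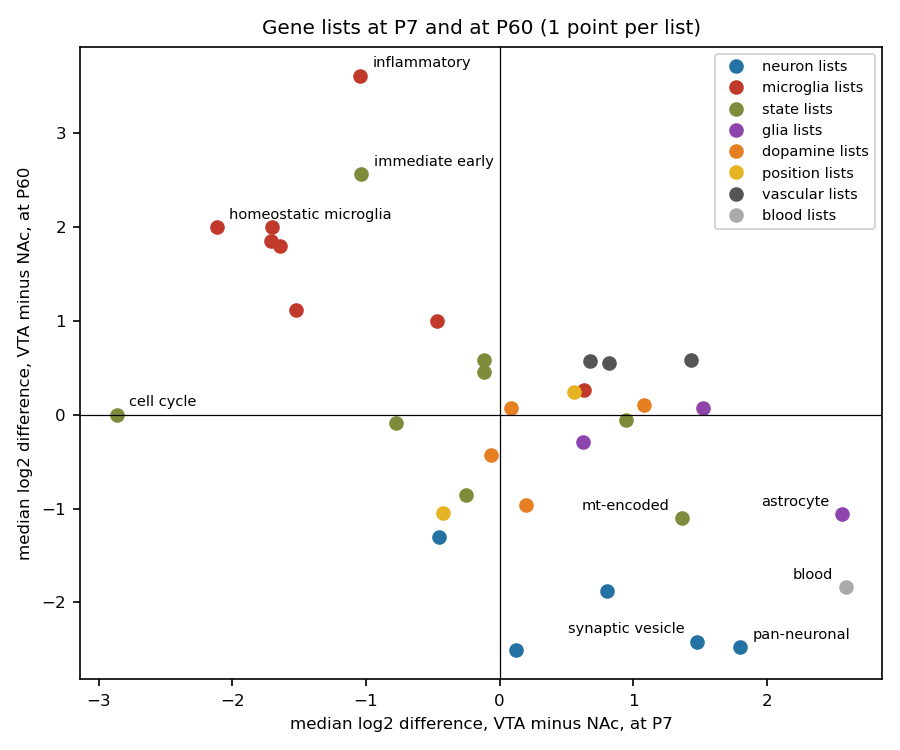
Each point is 1 of the gene lists, placed by its median log2 difference, VTA minus NAc, at P7 (horizontal axis) and at P60 (vertical axis), with colours for the class of list. Most microglia lists lie at the upper left (homeostatic markers at −2.12 and 2.00), and the pan-neuronal list lies at the lower right (1.80 and −2.48).

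Against P30, 265 genes were called (1.4%), 253 of them more positive at P60. The median of this difference over all tested genes was 0.86, and VTA P30 replicate 3 held 6786 genes with a read, the fewest of the 27 libraries. Without that library 53 genes were called and the median was 0.53. The lists are therefore not described for this age.

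**Figure D4:**
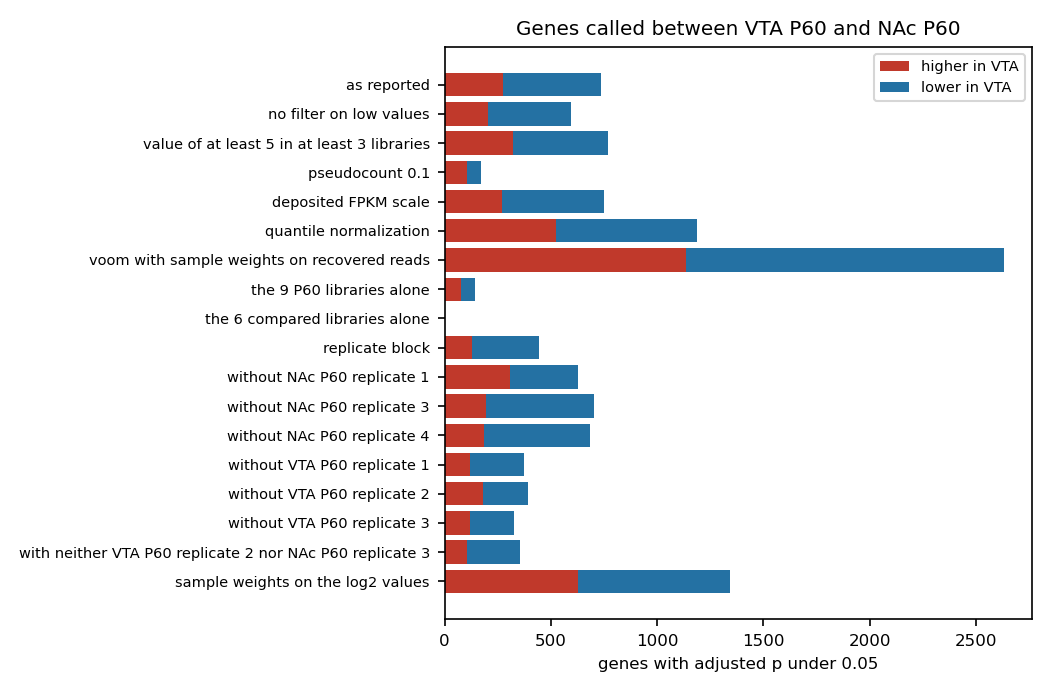
Number of genes called between VTA P60 and NAc P60 in the analysis as reported and under each other setting, split into genes higher in VTA and genes lower in VTA (stacked bars from 0). The bars run from 0 genes, with the 6 libraries alone, to 2633, with voom and sample weights, against 737 as reported.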

How the data were processed

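RNA of cells labelled as sorted DAT+ cells, a label that the levels of dopaminergic and microglial genes go against, was sequenced by SMART-seq2 in 27 libraries. The authors deposited 1 table of FPKM values for 54532 genes, with gene lengths; HISAT2 and the GRCm38/mm10 build are named per the submitters' processing notes, and the counting program is not given in the sources used here. VTA P30 replicate 3 was deposited on another scale, proportional to FPKM. Gene identifiers were restored and names taken from GENCODE M21, which held 54495 of them. Each library was divided by its sum of FPKM times length in kilobases; 100% of low values then equalled whole reads within 0.02. limma 3.58.1 (R 4.3.3; lmFit, eBayes with trend and robust) was run on log2(value + 1) over all 27 libraries, with Benjamini-Hochberg adjustment over 18888 genes, after a check on simulated data. The simulated data had the same relative spread in every gene and library. The check therefore cannot show error rates under the unequal spreads of the real groups. Contrasts were VTA minus NAc at P60, and its difference from P7 and P30. Genes were named by rule: the 15 largest called increases and 15 largest decreases without overlap and with a mean of at least 5 in the higher group, up to 4 called members of each list in each direction by adjusted p, 5 dopaminergic genes, and the 8 smallest adjusted p of each interaction; other list members are named with their values. Members and lists were chosen with earlier results of these data known. Figures and counts used Python 3.11.15 and pandas 2.3.3. Alternatives were filters, pseudocount, scaling, voom, sample subsets, a replicate block and sample weights. The last, and the promoter search, were added after seeing the data. No aligned reads were used. Some genes that met the rule are not reported here.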

Additional observations from a re-analysis of the deposited data

Results flagged for a closer look

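The difference between VTA and NAc changed between P7 and P60 by the interaction test for 7 genes given here, chosen by rank. On the log2 scale the change, P60 minus P7, was 5.02 for Ccnb1, 6.02 for Arhgdib, 4.63 for Pld4, 7.53 for Arl11 and 4.68 for Ctss. It was −4.74 for Erc2 and −4.98 for Pak7. Between P30 and P60 the change was 4.42 for Syde1, 5.17 for Zfp948, 6.17 for Mir5616, 4.24 for Tinagl1, 4.29 for Plxna3, 8.36 for Slc38a5, 4.00 for Clcn2 and 5.41 for Zfp809. The P30 values include VTA P30 replicate 3, the library with the fewest genes. Over all tested genes the median of the change from P30 was 0.86. Without that library the number of genes called fell from 265 to 53. Mir5616 is a short RNA gene and is uncertain, like those named above.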

How the results depend on the processing

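Against 737 calls between VTA and NAc at P60, a pseudocount of 0.1 gave 170 (62.9% higher in VTA, against 37.0%), quantile normalization 1190, voom 2633, sample weights 1343 (46.8% higher), the 9 P60 libraries alone 145, the 6 libraries alone 0, and neither VTA replicate 2 nor NAc replicate 3 353. Leaving out 1 library gave 327 to 704, and 49.1% higher without NAc replicate 1. No called gene was reversed under these settings. The replicate block gave 443 calls, and 130 against P30. Only numbers 1 and 3 are shared, and deviations of same-numbered libraries correlated at 0.05 and −0.12. Differently numbered pairs of a VTA and a NAc library lay between −0.097 and 0.14. So few pairs of such variable libraries cannot show whether the numbers pair them. The median of all genes moved to 0.11 with the pseudocount of 0.1 and to 0.14 without NAc replicate 1. The difference from P7, with 2503 calls, gave 1328 with a pseudocount of 0.1 and 4485 with voom, and 1864 to 2421 without a library. The difference from P30, with 265 calls, gave 154 without a filter, 130 with a pseudocount of 0.1, 33 on the deposited scale, 84 with quantile normalization, 823 with voom, 133 with neither of those libraries, and 53 to 616 without a library. The border-associated macrophage median of 0.27 became −0.21 with neither VTA replicate 2 nor NAc replicate 3, and −0.065 to 0.90 without 1 library. The mural and fibroblast median of 0.59 became −0.71 with the filter at 5. The cause of these changes was not tested.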
